A study of Mus musculus with 8 samples.

Results

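Secretory progenitor cells of the wild-type mouse colon were the epithelial cells that the study's authors gave the subtype name secretory-progenitor in their deposited cell table. There were 409 of them among 53080 cells of all kinds, with 46, 62, 150 and 151 in mice 1, 4, 5 and 8. They were set against the cells that the same table named goblet (287 cells), DCS (441 cells) and stem-progenitor (2378 cells), with all cells of a type in a mouse summed. The deposited table does not spell out the name DCS. The whole series was single-cell RNA-seq of the distal colonic mucosa of 8 mice at 8 weeks of age. Mice 2, 3, 6 and 7 were labelled Vil1::Cre;Spry2-f/f (KO), in which a Cre driven by the epithelial villin promoter is meant to delete Spry2, a feedback inhibitor of growth factor signalling, in the gut epithelium. Mice 1, 4, 5 and 8 were Spry2-f/f littermates without Cre (WT), so that all 8 mice carried the floxed alleles. Subtype names were filled for WT mice alone.

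The lining of the colon is renewed from stem cells at the crypt base, whose daughters choose an absorptive or a secretory fate. Cells that escape Notch signalling switch on the transcription factor Atoh1, display Notch ligands to their neighbours and go on to make mucus as goblet cells or to sit between the stem cells as deep crypt secretory cells. The mature goblet cell stores Muc2, the gel-forming mucin of the colon, with the proteins that package, cross-link and process it.

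Each library held 17037906 to 37300028 unique molecular identifiers (UMIs, the count of captured transcript molecules), in cells of 500 to 113660 UMIs. Of the 13229 epithelial cells of WT mice, 6502 carried a subtype name and 6727 did not, and none of the 10558 epithelial cells of KO mice did. Among the 409 cells, 4 had a barcode that also occurred in another library. The authors' own doublet name was given to 1316 cells, none of them epithelial. No cluster of the authors was mostly secretory progenitor cells: cluster 14 held 402 of the 409, which were 36.3% of its named cells, beside 414 stem-progenitor and 279 goblet cells. Since the authors drew the names from these same transcripts, differences in transcripts between named types are given as sizes with their spread over mice and with no p-value. The labels treat each mouse as a separate sample and say that all were processed in a single run. The tissue was digested with enzymes and dead cells were removed by annexin V before capture.

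Secretory progenitor cells made up 5.65% of the named epithelial cells in mouse 1, 3.51% in mouse 4, 9.22% in mouse 5 and 6.58% in mouse 8. The exact binomial 95% intervals were 4.17 to 7.47%, 2.70 to 4.48%, 7.86 to 10.7% and 5.60 to 7.68% for the same mice. The mean was 6.24% ± 2.37 (SD, n = 4), and the interval of mouse 4 lay below those of mice 5 and 8. Among cells with under 25% mitochondrial UMIs the mean was 10.6% ± 3.02 (SD, n = 4). The number of named cells depends on the authors' filter, and 78.2, 58.4, 39.2 and 11.3% of all epithelial cells of mice 1, 4, 5 and 8 had no name.

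These cells were deeply sampled, with medians of 4962.5, 5613, 14020.5 and 6380 UMIs per cell in mice 1, 4, 5 and 8. Goblet cells had 1640, 3207.5 and 4165 UMIs in mice 4, 5 and 8, where they were compared. Mouse 1 had only 5 goblet cells, under the minimum of 20 for a sum. DCS cells had 877, 1015, 1097 and 1402 UMIs, and stem-progenitor cells had 5375, 6879, 11963 and 9040 UMIs, in mice 1, 4, 5 and 8. Secretory progenitor cells were thus deeper than goblet cells in 3 of 3 mice and than DCS cells in 4 of 4, by a mean log2 ratio of 1.51 ± 0.79 and 2.71 ± 0.66 (SD, n = 3 and 4). Against stem-progenitor cells the log2 ratio was -0.17 ± 0.31 (SD, n = 4), with mouse 5 alone above 0.

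The share of mitochondrial UMIs also parted the types. Its median was 19.4, 16.7, 10.9 and 11.3% in secretory progenitor cells of mice 1, 4, 5 and 8. It was 31.8, 20.7 and 11.9% in goblet cells of mice 4, 5 and 8, and 28.0, 22.8, 18.1 and 13.6% in stem-progenitor cells. In DCS cells it was 0.375, 0.385, 1.25 and 0.234% in mice 1, 4, 5 and 8, below every other type in every mouse. In a two-sided exact permutation test of signs over mice, the smallest p is 1 in 8 for 4 mice and 1 in 4 for 3 mice, so none could pass 0.05. Of 9 such relations 7 reached that smallest p, and UMIs and genes per cell against stem-progenitor cells did not (exact permutation p = 0.375 and 0.25). The adjusted p over the 9 exact tests were 0.281 and 0.375.

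**Figure D1:**
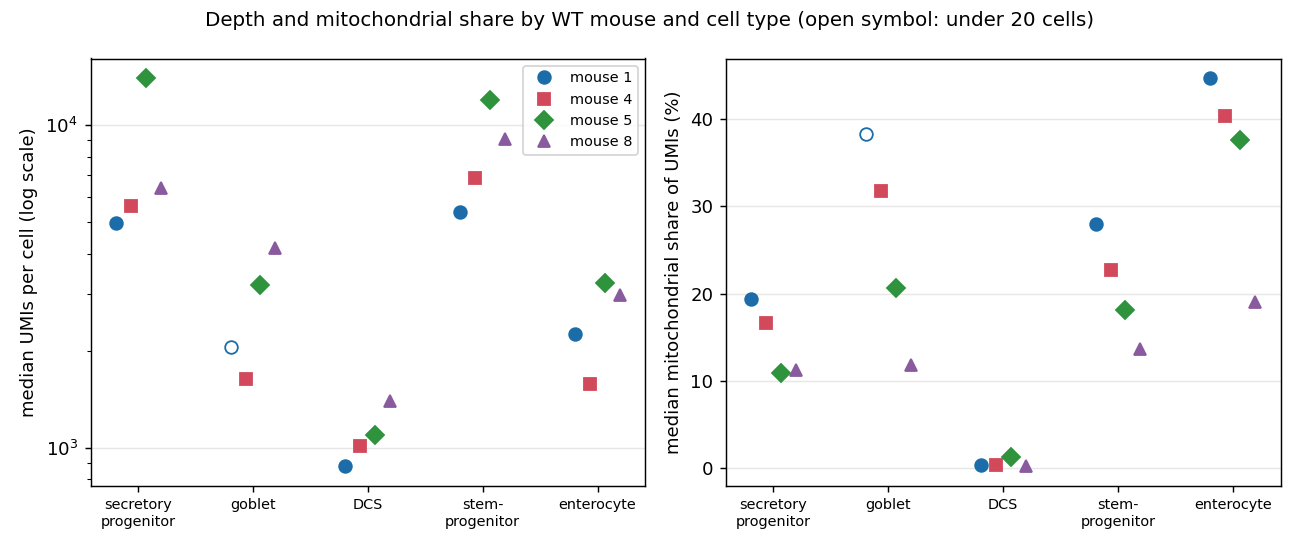
Median UMIs per cell (left, log axis) and median mitochondrial share of UMIs (right, linear axis) in each of the 4 WT mice, by the authors' cell type, with an open symbol for the 5 goblet cells of mouse 1. DCS cells lie lowest on both axes, at 877 to 1402 UMIs and 0.234 to 1.25%, against 4962.5 to 14020.5 UMIs and 10.9 to 19.4% in secretory progenitor cells.

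The 4 marker genes were measured first. As the names were drawn from these same transcripts, the marker levels describe the named cells and do not test the name. Levels are CPM, the UMIs of a gene in the summed cells scaled by TMM factors to a common library total. As 3′ tags count each molecule once, they were not divided by gene length. Differences are means over mice of log2(CPM + 5) in secretory progenitor cells minus the other type within the same mouse, with their standard error (SE). A gene was called higher or lower where this difference was at least 2-fold in 1 direction in every mouse compared.

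Reg4, a secreted lectin known as a marker of deep crypt secretory cells, maps to chr3:98222156-98236748, plus strand (mm10). It stood at 8088, 2300, 3112 and 3024 CPM in secretory progenitor cells of mice 1, 4, 5 and 8. The goblet sums held 0, 15.6 and 39.0 CPM in mice 4, 5 and 8, the DCS sums 8806, 2137, 2800 and 4402 CPM and the stem-progenitor sums 249.3, 93.9, 218 and 26.7 CPM. The difference was 7.40 ± 0.80 from goblet cells (SE, n = 3), -0.10 ± 0.16 from DCS cells and 4.98 ± 0.59 from stem-progenitor cells (SE, n = 4 each). Reg4 thus set secretory progenitor cells apart from goblet cells in every mouse, and did not set them apart from DCS cells.

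Best2, a bestrophin anion channel of the colonic epithelium, maps to chr8:85007202-85014531, minus strand. It stood at 220, 192, 163 and 74.2 CPM in secretory progenitor cells of mice 1, 4, 5 and 8. It had 234, 115 and 143 CPM in goblet cells of mice 4, 5 and 8. DCS cells had 147, 105, 76.3 and 39.6 CPM, and stem-progenitor cells had 11.5, 11.3, 9.82 and 1.34 CPM. The goblet values fell within the range of the secretory progenitor values but for mouse 4, and the differences were -0.23 ± 0.40 from goblet, 0.82 ± 0.10 from DCS and 3.63 ± 0.06 from stem-progenitor cells.

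Ccl6, a CC chemokine, maps to chr11:83587882-83593087, minus strand. It had 735, 719, 1308 and 754 CPM in secretory progenitor cells of mice 1, 4, 5 and 8, against 234, 430 and 364 CPM in goblet cells of mice 4, 5 and 8. Its differences were 1.41 ± 0.19 from goblet, -0.28 ± 0.08 from DCS and 3.96 ± 0.53 from stem-progenitor cells. The call against goblet cells was lost with DESeq2 size factors, where the difference was 1.27. Hepacam2, an immunoglobulin-superfamily membrane protein, maps to chr6:3457096-3498298, minus strand. It had 491, 405, 444 and 296 CPM in secretory progenitor cells of mice 1, 4, 5 and 8, against 467, 616 and 572 CPM in goblet cells of mice 4, 5 and 8. Its differences were -0.54 ± 0.21 from goblet, 0.89 ± 0.38 from DCS and 3.9 ± 0.37 from stem-progenitor cells. All 4 markers were thus high against stem-progenitor cells, and none was called against DCS cells.

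The stretches before the starts of these markers are shown because the genes were high together against stem-progenitor cells. Each is the 250 bases before the RefSeq start (GRCm38.p6), on the gene's strand, with capitals for 2 motifs searched on both strands. They are CAGCTG, an E-box form bound by basic helix-loop-helix factors such as Atoh1, and TGTTTAC, the core bound by forkhead factors such as Foxa1 to Foxa3. Another E-box form, CAGATG, was in none of the stretches. The windows are chr3:98221906-98222155 for Reg4, chr11:83593088-83593337 for Ccl6 and chr6:3494499-3494748 for Hepacam2. The Hepacam2 start of that table lies inside the gene span printed above, which begins farther upstream.
Reg4: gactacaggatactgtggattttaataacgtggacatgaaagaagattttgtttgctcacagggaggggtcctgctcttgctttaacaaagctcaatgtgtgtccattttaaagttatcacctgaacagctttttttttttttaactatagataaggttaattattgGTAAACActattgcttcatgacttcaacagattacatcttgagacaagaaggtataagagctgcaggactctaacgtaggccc
Ccl6: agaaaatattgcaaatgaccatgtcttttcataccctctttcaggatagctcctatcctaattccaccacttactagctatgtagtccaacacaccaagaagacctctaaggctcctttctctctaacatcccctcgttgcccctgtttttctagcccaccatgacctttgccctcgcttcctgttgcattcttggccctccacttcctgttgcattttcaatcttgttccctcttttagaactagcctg
Hepacam2: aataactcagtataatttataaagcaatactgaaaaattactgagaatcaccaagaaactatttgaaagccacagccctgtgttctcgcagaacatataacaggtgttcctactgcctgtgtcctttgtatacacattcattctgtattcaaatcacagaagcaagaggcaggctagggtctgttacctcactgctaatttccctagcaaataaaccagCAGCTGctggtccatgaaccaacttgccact
TGTTTAC lay 83 bases before the start of Reg4, on the opposite strand, and CAGCTG lay 31 bases before the start of Hepacam2, while the Ccl6 window held neither. Of all 32851 windows of this length, 3.17% held TGTTTAC, 13% held CAGCTG and 14.4% held CAGATG. No entry was used for Best2.

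**Figure D2:**
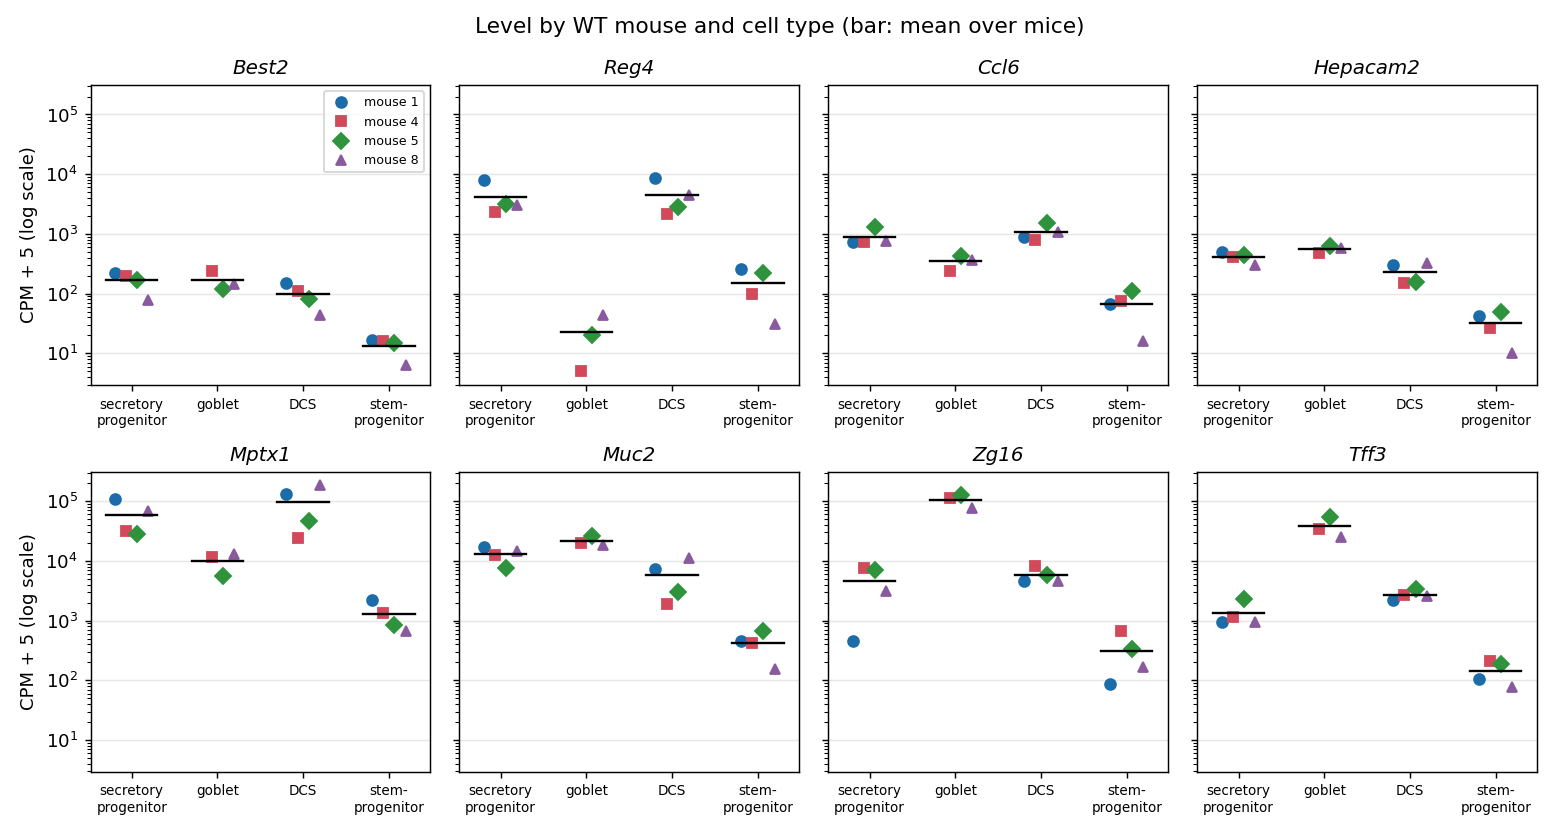
CPM + 5 (log axis) of the 4 markers and of 4 secreted products in each WT mouse by cell type, with a bar at the mean over mice. Reg4 in secretory progenitor cells, at 2300 to 8088 CPM, lies with DCS cells and far above goblet cells, whereas Zg16 and Tff3 lie far below goblet cells.

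Set against stem-progenitor cells, secretory progenitor cells carried the transcripts of mucus, of its glycosylation and of the endoplasmic reticulum, and had lower levels of genes of the absorptive colonocyte. Of 8273 genes tested, 248 were higher (3%) and 276 lower (3.34%), with a median log2 difference of 0.03 over all genes. Of 16 mucus components, all of which passed the filter on low counts, 12 were higher and 2 lower, with a median of 3.66. The 2 lower were Lypd8 and Muc3, both made by colonocytes.

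Muc2 had 16880, 12694, 7596 and 14865 CPM in secretory progenitor cells of mice 1, 4, 5 and 8, against 446, 420, 666 and 151 CPM in stem-progenitor cells, a log2 difference of 5.05 ± 0.63. Retnlb, an antibacterial resistin-like protein, had 5425, 1050, 1259 and 8636 CPM, against 134, 13.8, 64.5 and 55.4 CPM in stem-progenitor cells (5.61 ± 0.62). Its level differed among mice more than that of Muc2, with mice 1 and 8 high and mice 4 and 5 low. Mptx1, a mucosal pentraxin (chr1:174330518-174332873, plus strand), was the most abundant of the products followed here. It had 109576, 32142, 27779 and 68577 CPM in secretory progenitor cells, against 2251, 1330, 842 and 666 CPM in stem-progenitor cells. Clca1, a mucus-processing metalloprotease, Fcgbp, a mucin-binding protein, and Spink4, a Kazal-type peptidase inhibitor, were higher by 5.05 ± 0.48, 4.88 ± 0.42 and 4.66 ± 0.78. Muc2, Retnlb, Mptx1, Clca1, Fcgbp and Spink4 each had all secretory progenitor values above all stem-progenitor values.

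Transcription factors of the secretory lineage were high as a group, with 9 of 17 that passed the filter higher and 2 lower (19 listed, median 1.63). Atoh1, the factor that sets the secretory fate, had 61.8, 105, 223 and 215 CPM in secretory progenitor cells of mice 1, 4, 5 and 8, against 10.5, 5.32, 17.4 and 2.75 CPM in stem-progenitor cells. Spdef, which drives goblet cell maturation, had 168, 189, 114 and 224 CPM, against 7.53, 10.95, 12.8 and 2.99 CPM. Cbfa2t3, a corepressor, and Creb3l4, a membrane-bound factor of the secretory pathway, were higher by 3.63 and 3.58. The 2 lower were Cdx2 and Hnf4a, factors of enterocyte genes, by -1.22 and -1.38. In Atoh1, mouse 1 had the lowest and mouse 5 the highest level, and Spdef had another order, with mouse 5 lowest.

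In the Notch list the ligands Dll1 and Dll4 were higher, while Jag1 and Jag2, the other ligands listed, were not among the members called. Dll1 had 30.9, 49.99, 30.1 and 20.8 CPM in secretory progenitor cells of mice 1, 4, 5 and 8, against 5.02, 6.57, 7.48 and 2.99 CPM in stem-progenitor cells, a log2 difference of 1.82 ± 0.16. Dll4 had 44.7, 19.4, 17.6 and 20.3 CPM, against 3.01, 2.19, 2.81 and 0.794 CPM (2.01 ± 0.24). Lfng, which modifies the Notch receptor, was also higher (1.77). These were the 3 of 12 members called (17 listed), and the median of the list was 0.01. The receptor Notch1 had -1.28 and the target Hes1 -0.84, neither of them called.

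Mucin glycosylation showed 11 of 19 members higher and none lower (20 listed, median 1.6). St6gal1, a sialyltransferase, had 72.2, 116, 122 and 52.8 CPM in secretory progenitor cells of mice 1, 4, 5 and 8, against 8.53, 5.95, 10.01 and 0.794 CPM in stem-progenitor cells. Bcas1, Gcnt3, a branching enzyme of mucin glycans, and Galnt12, which starts them, were higher by 2.81, 2.62 and 2.51. In the list of the secretory pathway and unfolded protein response, 11 of 24 were called higher and none lower, and all 24 lay above 0 (median 1.19). Kdelr3, a retrieval receptor, Pdia5, a disulfide isomerase, and Ern2, the epithelial form of the stress sensor IRE1, were higher by 2.69, 2.51 and 2.33.

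Genes of absorption ran the other way. Car1, a carbonic anhydrase, had 20.6, 24.2, 11.3 and 123 CPM in secretory progenitor cells of mice 1, 4, 5 and 8, against 1228, 1239, 751 and 3162 CPM in stem-progenitor cells, a difference of -5.29 ± 0.22. Slc26a3, the chloride and bicarbonate exchanger, had 10.3, 11.3, 6.26 and 6.403 CPM, against 469, 395, 255 and 634 CPM (-4.98 ± 0.29). Tgm3, a transglutaminase, and Cyp2c55, a cytochrome P450, were lower by -5.17 and -4.47. In the ion transport list 6 of 19 were lower and 2 higher, the 2 being Best2 and Slc12a2, the basolateral chloride uptake carrier of secretion. Slc12a2 had 801, 568, 426 and 313 CPM in secretory progenitor cells, against 223, 158, 209 and 64.0 CPM in stem-progenitor cells.

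**Figure D3:**
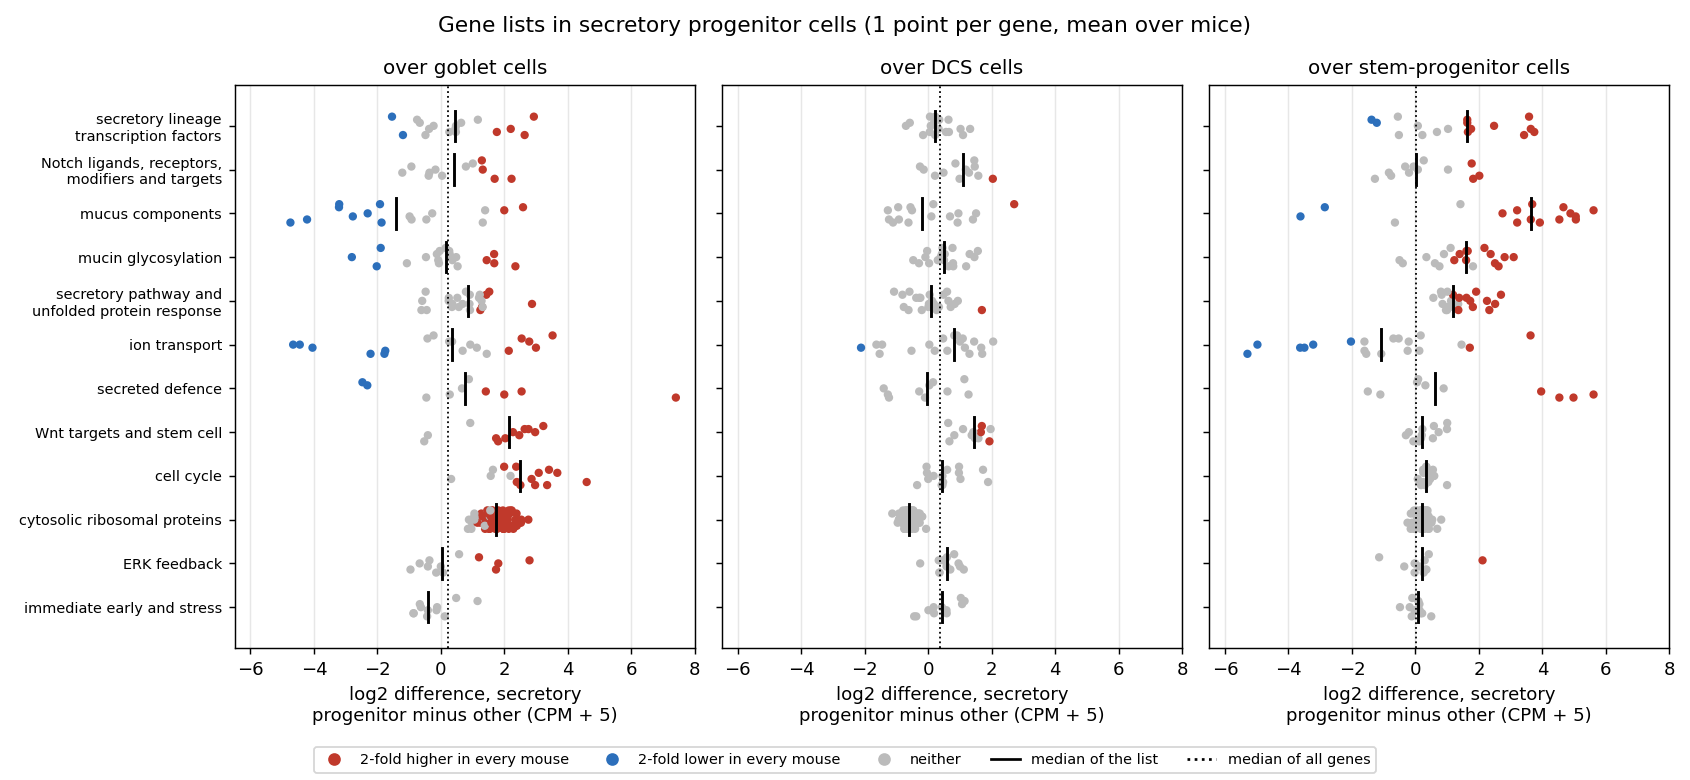
Mean log2 difference of each gene in 12 lists, secretory progenitor minus goblet, DCS or stem-progenitor cells, with a bar at the list's median and a dotted line at the median of all genes. Mucus genes lie on the right against stem-progenitor cells (median 3.66) and on the left against goblet cells (median -1.43), and ribosomal protein genes lie on the right against goblet cells (median 1.73) and on the left against DCS cells (median -0.59).

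Against goblet cells, secretory progenitor cells had higher levels of ribosomal, cell cycle and stem cell genes and lower levels of most mucus components called. Of 8273 genes, 753 were higher (9.1%) and 487 lower (5.89%) in mice 4, 5 and 8. All genes had a median of 0.23, which was 0.11 under DESeq2 size factors. The higher share of the calls, 60.7%, was 51.7% with that scaling. It was 73.1% after cells were thinned to 2000 UMIs and 56.9% after they were thinned to 1000 UMIs. Of the mucus components 8 of 16 were lower and 2 higher, with a median of -1.43.

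Zg16, a lectin of the mucus that binds bacteria, had 7758, 6963 and 3153 CPM in secretory progenitor cells of mice 4, 5 and 8, against 113448, 125737 and 77231 CPM in goblet cells. The difference was -4.22 ± 0.22 (SE, n = 3). Tff3, the trefoil peptide of goblet cells, had 1134, 2294 and 948 CPM, against 34938, 55073 and 24825 CPM (-4.74). Clca1 and Fcgbp were lower by -2.78 and -2.31, while Muc2 itself was not called (-0.93), with 12694, 7596 and 14865 CPM against 20233, 26340 and 18458 CPM. So the products stood in unequal ratios to goblet cells: Spink4 (2.58 ± 0.36) and Retnlb (1.99) were higher, Muc2 lay between, and Zg16 and Tff3 were far lower.

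The lowest genes relative to goblet cells were Saa1, an acute-phase protein (-7.36 ± 0.19), Slfn4 (-6.48 ± 0.41) and Spink1, a trypsin inhibitor (-5.89 ± 0.40). Saa1 had 25.8, 43.4 and 8.54 CPM in secretory progenitor cells of mice 4, 5 and 8, against 5180, 6230 and 2735 CPM in goblet cells. Spink1 had 734, 773 and 222 CPM, against 32907, 35233 and 23649 CPM in goblet cells. Atp12a, a proton and potassium pump, was lower by -5.61, and the Cyp2d12 and Cyp2d34 genes by -5.58 and -4.85. Reads of the Cyp2d family may be split between near-identical copies.

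The highest after Reg4 were Cd177, a surface glycoprotein (5.40 ± 0.52), Cldn15, a tight junction protein, Meg3, a long noncoding RNA (5.13 ± 0.59), and Clca3b. Cd177 had 424, 163 and 297 CPM in secretory progenitor cells of mice 4, 5 and 8, against 0, 0 and 6.50 CPM in goblet cells. Cldn15, Clca3b and Cdo1 had no UMI in any goblet sum. Against the 3.20 CPM that a count of 0 allows over the 3 goblet sums, they were at least 49.0-, 38.6- and 24.4-fold higher, with the mice weighted by the size of their goblet sums. Nov, a secreted matricellular protein, was higher by 4.71 ± 0.78, with 323, 251 and 477 CPM against 0, 20.2 and 12.99 CPM.

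Of 83 cytosolic ribosomal protein genes 80 passed the filter, 67 were higher than in goblet cells and none lower, with a median of 1.73. Rpl12 had 1098, 1556 and 1086 CPM in secretory progenitor cells of mice 4, 5 and 8, against 354, 201 and 78.0 CPM in goblet cells. Rps2 had 2812, 2770 and 2881 CPM, against 863, 388 and 338 CPM. The mitochondrial share was lower in secretory progenitor than in goblet cells in 3 of 3 mice, with a difference of -8.48 ± 7.36 percentage points (SD), and Malat1, a nuclear RNA, was lower too (-1.68). The part of the mitochondrial and nuclear RNA in these differences was not tested.

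Stem cell and Wnt target genes were higher in 9 of 12 members (19 listed, median 2.15, or 2.17 with the 1 gene without a goblet UMI at its bound) and lower in none. Lrig1, a receptor inhibitor of stem cells, had 54.8, 50.4 and 54.4 CPM in secretory progenitor cells of mice 4, 5 and 8, against 0, 4.67 and 0 CPM in goblet cells. Ephb2 and Ephb3, receptors that place cells along the crypt, and Sox9 were higher by 2.97, 2.76 and 2.64. Against stem-progenitor cells none of the 12 was called (median 0.21), beside 3% higher and 3.34% lower of all genes. Sox9 differed by 0.22 from stem-progenitor cells. Kit, a receptor tyrosine kinase of deep crypt secretory cells, had 80.6, 92.3 and 132 CPM, against 28.3, 31.1 and 32.5 CPM in goblet cells (1.55 ± 0.16).

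In the secretory lineage factors 4 of 17 were higher than in goblet cells (Creb3l4, Bhlha15, Sox9 and Cbfa2t3) and 2 lower (Klf4 and Elf3), and Atoh1 (-0.49) and Spdef (0.26) were in neither group. In mucin glycosylation 4 of 19 were higher and 3 lower, and in the secretory pathway 5 of 24 were higher and none lower (medians 0.15 and 0.84). Over all genes 9.1% were higher than in goblet cells and 5.89% lower, with a median of 0.23. In secreted defence 4 of 10 were higher (Reg4, Retnlb, Wfdc2 and Ccl6) and 2 lower (Duox2 and Duoxa2), with 16 listed and a median of 0.77. In the list of feedback genes of the ERK pathway, which Spry2 restrains, 4 of 12 were higher (14 listed, median 0.03). Etv5, a factor induced by ERK, had 45.2, 24.6 and 31.5 CPM in secretory progenitor cells of mice 4, 5 and 8, against 0, 1.56 and 0 CPM in goblet cells. It was also the 1 member of that list called against stem-progenitor cells (2.11). In immediate early and stress genes 0 of 11 were called in any comparison, while Hspa1a stood at 608 CPM in secretory progenitor cells of mouse 4 and at 62.6 to 130 CPM in the other mice. It was also highest in mouse 4 in goblet, DCS and stem-progenitor cells, at 722, 430 and 568 CPM.

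The fewest genes were called against DCS cells. Of 8273 genes, 161 were higher (1.95%) and 12 lower (0.145%) in all 4 mice, with a median log2 difference of 0.37 over all genes. The DCS sums of mice 1, 4 and 5 were small, at 73692, 86202 and 91206 UMIs, against 784700 in mouse 8. Leaving out mouse 8, which held 262 of the 441 DCS cells, gave 669 higher and 62 lower genes. That is more than against stem-progenitor cells without mouse 8 (256 and 292), so this order rests on mouse 8. None of the 17 secretory lineage factors was called, and 1 of 24 secretory pathway genes was (Ern2, 1.69), as was 1 of 16 mucus components (Sytl2, a granule-tethering protein, 2.71). With 1.95% of all genes called higher and 0.145% lower, such counts in short lists are near the shares over all genes.

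The highest gene was Meg3. It had 1020, 373, 118 and 346 CPM in secretory progenitor cells of mice 1, 4, 5 and 8, against 0, 0, 0 and 41.2 CPM in DCS cells (5.37 ± 1.03). Neat1, which scaffolds nuclear paraspeckles, had 2556, 3127, 1349 and 1591 CPM, against 147, 262, 43.6 and 255 CPM (3.76 ± 0.46). Malat1 had 22628, 14575, 11088 and 10844 CPM, against 3801, 2965, 1645 and 3239 CPM (2.34 ± 0.22). Malat1 was not among the 8 highest called genes with at least 50 CPM. Besides Meg3 and Neat1, these were Gm26917 (3.49), Eppk1 (3.16), Gm26532 (3.15), Neurl3 (3.07), Kcnq1ot1 (3.01), an antisense RNA of an imprinted locus, and Zfp950 (2.96). DCS cells also had the low UMI count and low mitochondrial share given above, and the part of those in the differences was not tested.

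Kit separated the types as well, with 175, 80.6, 92.3 and 132 CPM in secretory progenitor cells of mice 1, 4, 5 and 8, against 13.4, 0, 10.9 and 57.0 CPM in DCS cells (2.79 ± 0.63). In cells thinned to 1000 UMIs, 13.2% ± 3.24 of secretory progenitor cells had a Kit UMI, against 0.592% ± 1.18 of DCS cells (SD, n = 4 mice each) and 0.115% of enterocytes, which should lack it. Dll1 was higher by 2.04 ± 0.46. Axin2, Lrig1 and Ephb2, the 3 stem cell genes called of 12, were higher by 1.93, 1.69 and 1.66, and all 12 lay above 0 (median 1.45).

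Among secreted products, Spink4, Retnlb, Ang4 and Agr2 had log2 differences from DCS cells of -0.95, -1.27, -1.24 and -0.62, and none was called. Retnlb had 5425, 1050, 1259 and 8636 CPM, against 9261, 932, 9325 and 26193 CPM in DCS cells of mice 1, 4, 5 and 8, and the groups overlapped. The called lower genes were led by Sprr2a3, a small proline-rich protein (-2.26 ± 0.27), Car4 (-2.12 ± 0.41), Igha, the heavy chain of IgA made by plasma cells (-2.04 ± 0.29), and Rhoc (-1.76 ± 0.25). Igha had 61.8, 35.5, 141 and 24.5 CPM in secretory progenitor cells, against 268, 199, 861 and 65.0 CPM in DCS cells. All 80 ribosomal protein genes lay below 0 (median -0.59) and none was called. Tmsb10, a thymosin that binds actin, had 711, 976, 1214 and 1760 CPM, against 1753, 2378, 3508 and 4014 CPM in DCS cells (-1.32 ± 0.07).

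Within the population the products were unevenly spread over cells. Mptx1 took 0 to 33.3% of the UMIs of single secretory progenitor cells of mouse 1, with a median of 4.83%. The medians in mice 4, 5 and 8 were 1.66, 1.04 and 3.69%, and the highest cells had 24.8, 23.3 and 27.2%. The sum of 12 secreted products had medians of 14.0, 8.96, 7.43 and 10.9% in mice 1, 4, 5 and 8 and reached 31.5 to 46.8% in the highest cell. Zg16 had a median of 0% in mice 1, 4 and 8 and 0.00577% in mouse 5, yet reached 18.6% in 1 cell of mouse 4. Muc2 medians lay between 0.613% in mouse 5 and 1.35% in mouse 8.

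Shares of cells with a UMI were compared after each cell was thinned to 2000 UMIs, which left 367 of the 409 cells, 189 goblet cells and 2267 stem-progenitor cells. Reg4 was found in 87.8, 64.3, 76.9 and 80.3% of secretory progenitor cells of mice 1, 4, 5 and 8, a mean of 77.3% ± 9.81 (SD, n = 4). It was found in 0.483% ± 0.837 of goblet cells (n = 3), 6.30% ± 3.40 of stem-progenitor cells and 2.59% ± 2.38 of enterocytes (n = 4 each). Enterocytes, which had 1575 to 3246 UMIs per cell, served as the type that should lack these genes. Best2 was found in 25.8% of secretory progenitor cells, against 21.7% of goblet cells and 0 of 1618 enterocytes, which allows up to 0.185%. Unthinned, Reg4 was found in 80.8% and Best2 in 52.0% of secretory progenitor cells.

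Muc2 was found in 96.3% ± 2.80 of secretory progenitor cells, against 98.7% of goblet and 9.48% of stem-progenitor cells, with 10.8% in enterocytes. Reg4 and Muc2 were found together in 74.5% ± 12.01 of secretory progenitor cells, against 0.483% ± 0.837 of goblet cells and 3.22% ± 1.62 of stem-progenitor cells. DCS cells shared this: at 1000 UMIs the pair was found in 58.7% ± 10.9 of secretory progenitor and 49.95% ± 19.2 of DCS cells, and in mouse 8 at 2000 UMIs in 77.95 and 82% of them. Only 100 of the 262 DCS cells of mouse 8 reached 2000 UMIs. Zg16 was found in 26.2% ± 10.1 of secretory progenitor cells, against 100% of goblet cells. Enterocytes had it in 26.4% ± 9.84, stem-progenitor cells in 11.8% ± 4.13 and tuft cells in 8.62% ± 2.97 (n = 2 mice), so this share did not set secretory progenitor cells apart from enterocytes. Tff3 was found in 42.4% ± 7.11, against 100% of goblet cells and 23.5% ± 9.95 of enterocytes.

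Kit was found in 27.0% ± 9.15 of secretory progenitor cells, against 0.966% of goblet, 1.11% of stem-progenitor cells and 0.114% of enterocytes. Tuft cells, another crypt cell type, had it in 41.5% ± 18.2 (SD, n = 2 mice). Spdef was found in 31.99% ± 10.7, against 15.7% of goblet and 0.820% of stem-progenitor cells, and Atoh1 in 25.8% ± 11.8, against 29.4% and 0.621%. Lgr5, the stem cell receptor, was found in 0.350% ± 0.699 of secretory progenitor and 1.62% ± 0.872 of stem-progenitor cells, and unthinned in 3.47% ± 2.57 and 4.32% ± 2.41, so it was rarely captured in either. Neurog3, the factor of endocrine progenitors, had a UMI in 1 of the 409 cells unthinned.

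**Figure D4:**
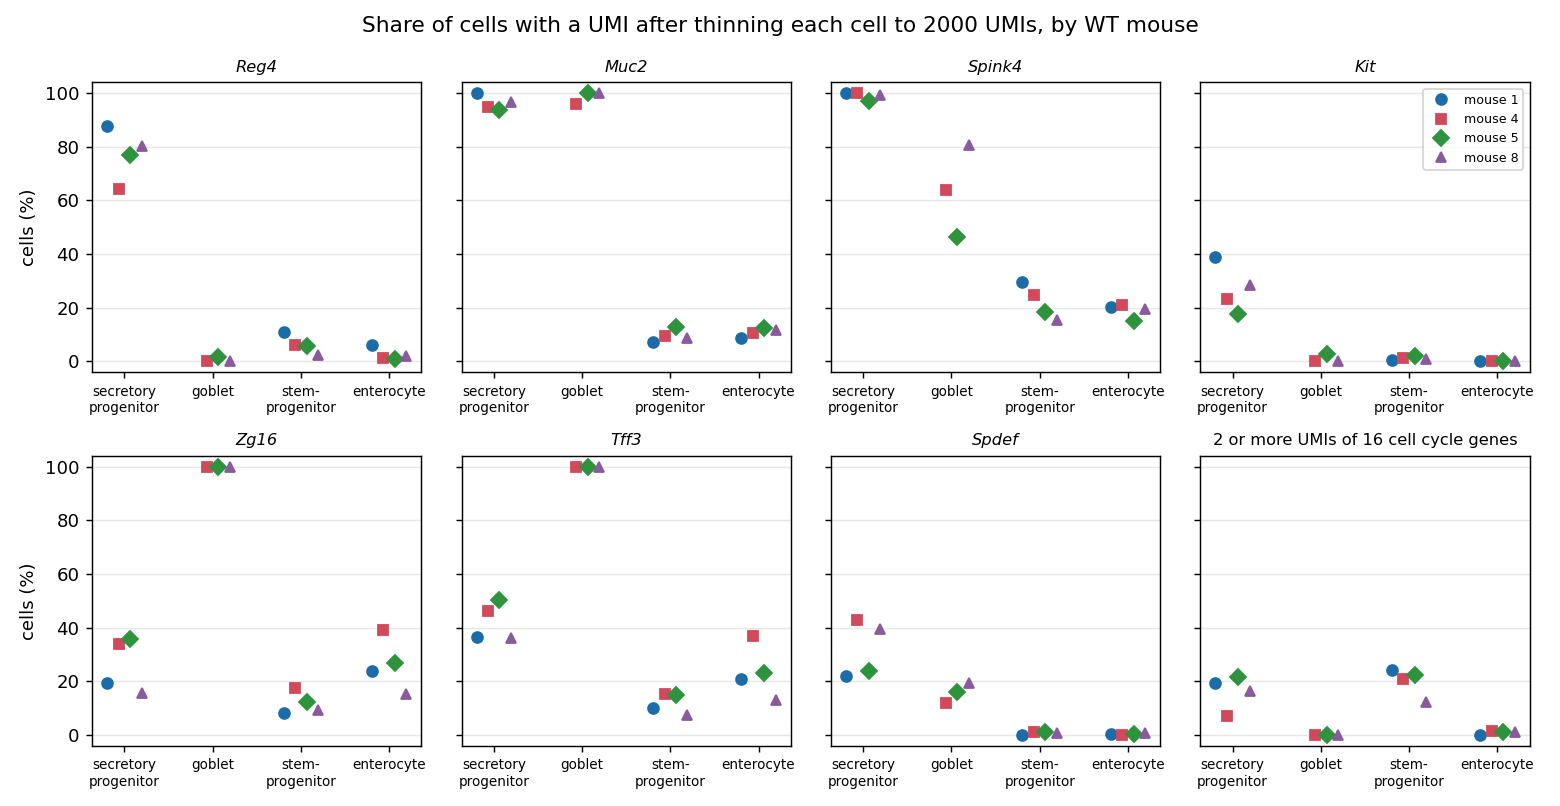
Share of cells with a UMI of 7 genes, and with at least 2 UMIs over 16 cell cycle genes, after thinning each cell to 2000 UMIs, with 1 point per WT mouse. Reg4 and Kit are found in many secretory progenitor cells and in few goblet cells, Zg16 and Tff3 in all goblet cells, and cycling cells in secretory progenitor (16.2%) and stem-progenitor cells (19.9%) but in no goblet cell.

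A minority of secretory progenitor cells carried transcripts of the cell cycle. At least 2 UMIs over 16 cell cycle genes were found in 19.5, 7.14, 21.7 and 16.5% of thinned cells of mice 1, 4, 5 and 8, a mean of 16.2% ± 6.41 (SD, n = 4). The share was 0% in goblet cells of all 3 mice, 19.9% ± 5.20 in stem-progenitor cells and 0.888% ± 0.609 in enterocytes. Unthinned, it was 37.7% in secretory progenitor, 2.34% in goblet and 40.3% in stem-progenitor cells. A UMI of Mki67, a protein of dividing cells, was found in 10.7% ± 5.77 of secretory progenitor and 11.96% ± 2.60 of stem-progenitor cells. It was found in 0 of 189 goblet cells, which allows up to 1.59%. Mki67 and Muc2 were found together in 8.92% ± 6.06 of secretory progenitor cells, against 1.53% ± 0.424 of stem-progenitor cells. Muc2 itself was found in 96.3% and 9.48% of these types, so the pair is no measure of a difference in cycling. In mouse 8, the 1 mouse with enough DCS cells at 2000 UMIs, the pair was found in 6.30% of secretory progenitor and 10% of DCS cells, and at least 2 cell cycle UMIs in 16.5% and 28%. That depth kept 127 of the 151 secretory progenitor cells of this mouse but only the deepest 100 of its 262 DCS cells. Unthinned, at least 2 cell cycle UMIs were found in 33.8% of its secretory progenitor and 18.7% of its DCS cells. At 1000 UMIs, at least 2 cell cycle UMIs were found in 11.98% ± 6.54 of secretory progenitor and 8.33% ± 9.90 of DCS cells. In the sums, 11 of 15 cell cycle genes were higher than in goblet cells (16 listed, median 2.50, or 2.72 with the 4 genes without a goblet UMI at their bound). None was called against stem-progenitor (median 0.35) or DCS cells (0.45). Of all genes, 3% were higher and 3.34% lower than in stem-progenitor cells, and 1.95% and 0.145% than in DCS cells. With so few genes called, 0 of 15 is near these shares. The medians of all genes were 0.03 and 0.37.

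Where the 2 end types differ, secretory progenitor cells can be placed between them on a scale on which stem-progenitor cells are 0 and the other type is 1. Over 189 genes that differed at least 4-fold in every mouse between goblet and stem-progenitor cells, the median place of secretory progenitor cells was 0.413, 0.382 and 0.436 in mice 4, 5 and 8, a mean of 0.41 ± 0.03 (SD, n = 3). It was 0.505 ± 0.032 over the 114 genes higher in goblet cells and 0.186 ± 0.11 over the 75 higher in stem-progenitor cells. Over 154 genes that parted DCS from stem-progenitor cells the place was 0.843, 0.895, 0.661 and 0.838 in mice 1, 4, 5 and 8, a mean of 0.81 ± 0.10 (SD, n = 4). The 4-fold rule used only the 2 end types, but the secretory progenitor sums entered the scaling and the filter on low counts. The SD is over mice, and single genes spread more widely. Towards goblet cells their lower quartiles were 0.0575, 0.0935 and -0.0989 and their upper quartiles 0.741, 0.674 and 0.817 in mice 4, 5 and 8. Towards DCS cells the quartiles were 0.461 and 0.865 in mouse 5 and 0.566 and 1.17 in mouse 4. The goblet place was 0.273 to 0.341 with 1 mouse left out, 0.107 at a pseudocount of 1 CPM and 0.548 with an 8-fold rule, and the DCS place was 0.463 without mouse 8.

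The 10 colonocyte markers summed to 603 to 805 CPM in secretory progenitor cells, against 1527 to 2308 CPM in goblet, 553 to 1183 CPM in DCS and 4830 to 9570 CPM in stem-progenitor cells. Markers of cells outside these lineages had smaller sums. The summed level of 6 T cell markers was 171 CPM in mouse 1 and 1.16 to 23.0 CPM in the other mice, and of 6 macrophage markers 57.3 CPM in mouse 5 and at most 1.77 CPM in the others. The 10 enteroendocrine markers summed to 13.1 to 177 CPM and the 9 tuft markers to 3.54 to 42.2 CPM. B and plasma cell markers summed to 10.97 to 100.9 CPM, fibroblast markers to 6.70 to 40.4 CPM and endothelial markers to 2.19 to 5.31 CPM. The 4 secretory progenitor markers summed to 3968 to 9297 CPM in secretory progenitor cells and to 3515 to 10286 CPM in DCS cells.

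KO cells carry no subtype names, so KO and WT mice were compared in cells chosen alike in both genotypes. These were the epithelial cells of the authors' cluster 14 with at least 2 Reg4 UMIs. This choice was made after the data were seen. Of the named WT cells so chosen, 304 (77.6%) were secretory progenitor and 78 stem-progenitor cells, and they held 74.3% of all secretory progenitor cells. The mix of types among the KO cells so chosen is not known, and its part in the differences below was not tested. There were 23, 48, 33 and 42 such cells in KO mice 2, 3, 6 and 7, and 50, 55, 163 and 130 in WT mice 1, 4, 5 and 8. Median UMIs per cell were 8711 to 16056 in KO mice and 6010.5 to 15856 in WT mice.

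Spry2, the targeted gene, had 41.1, 21.7, 27.9 and 60.5 CPM in KO mice, against 30.8, 27.3, 40.1 and 33.2 CPM in WT mice. The groups overlapped, with a log2 difference of 0.10 ± 0.28 (SE) and an adjusted p of 0.9999 (edgeR's quasi-likelihood test, Benjamini-Hochberg). Which part of Spry2 the floxed allele loses is not given in the sources used here. A 3′ tag outside it would not show the deletion, so these counts do not check the genotype labels.

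The same test over 7313 genes, with Reg4 left out, called 2 genes (0.0273%), Cma1 and Gsdmc2. An unadjusted p under 0.05 by this test was found for 340 of the 7313 genes, no more than chance gives at that threshold. DESeq2 called 4 genes. Cma1 (chr14:55941451-55944675, minus strand) encodes a serine protease that mast cells store in their granules. It had 88.6, 72.9, 67.9 and 46.8 CPM in KO mice, against 15.4, 19.0, 21.3 and 11.2 CPM in WT mice, with no overlap. The log2 difference was 1.99 ± 0.26 (SE), with an adjusted p of 0.00621 by edgeR's quasi-likelihood test and higher levels in 4 of 4 KO mice. A UMI of Cma1 was found in 50 of 146 KO cells and 63 of 398 WT cells. The mast cell genes Cpa3, Mcpt1, Mcpt2, Mcpt4, Fcer1a and Ms4a2 had 0 UMIs in both groups, Tpsb2 had 0 in KO and 2 in WT cells, and Hdc had 0 and 3. Tpsg1, another tryptase, was found in 91 of 146 KO cells and 258 of 398 WT cells, with a log2 difference of -0.26 (adjusted p = 0.982 by edgeR's quasi-likelihood test). In the named WT cells Cma1 had 20.6, 14.5, 24.6 and 11.7 CPM in secretory progenitor cells of mice 1, 4, 5 and 8, against 0.502, 0.939, 1.497 and 0.244 CPM in stem-progenitor cells.

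Gsdmc2, a gasdermin, maps to chr15:63824346-63845177, minus strand. It had 31.6, 24.8, 21.8 and 46.8 CPM in KO mice, against 108, 71.1, 94.5 and 156 CPM in WT mice, with no overlap. The log2 difference was -1.84 ± 0.28 (SE), with an adjusted p of 0.0280 by edgeR's quasi-likelihood test. The call was lost in cells under 25% mitochondrial UMIs (adjusted p = 0.113) and without any 1 of mice 1, 2, 3, 6 or 8 (0.0664 to 0.275), with log2 differences of -2.11 to -1.58 over all alternatives. Gsdmc2 has near-identical neighbours in its family, between which reads may be split. The next genes by p were Dmbt1, a scavenger receptor-like protein of the mucosa (-1.45, adjusted p = 0.308), Nov (-1.42, 0.483) and Gsdmc4 (-1.01, 0.523), and edgeR called none of them. Of the other markers, Best2 differed by 0.75 (adjusted p = 0.964), Ccl6 by 0.21 (0.982) and Hepacam2 by 0.28 (0.976), all by edgeR's quasi-likelihood test.

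**Figure D5:**
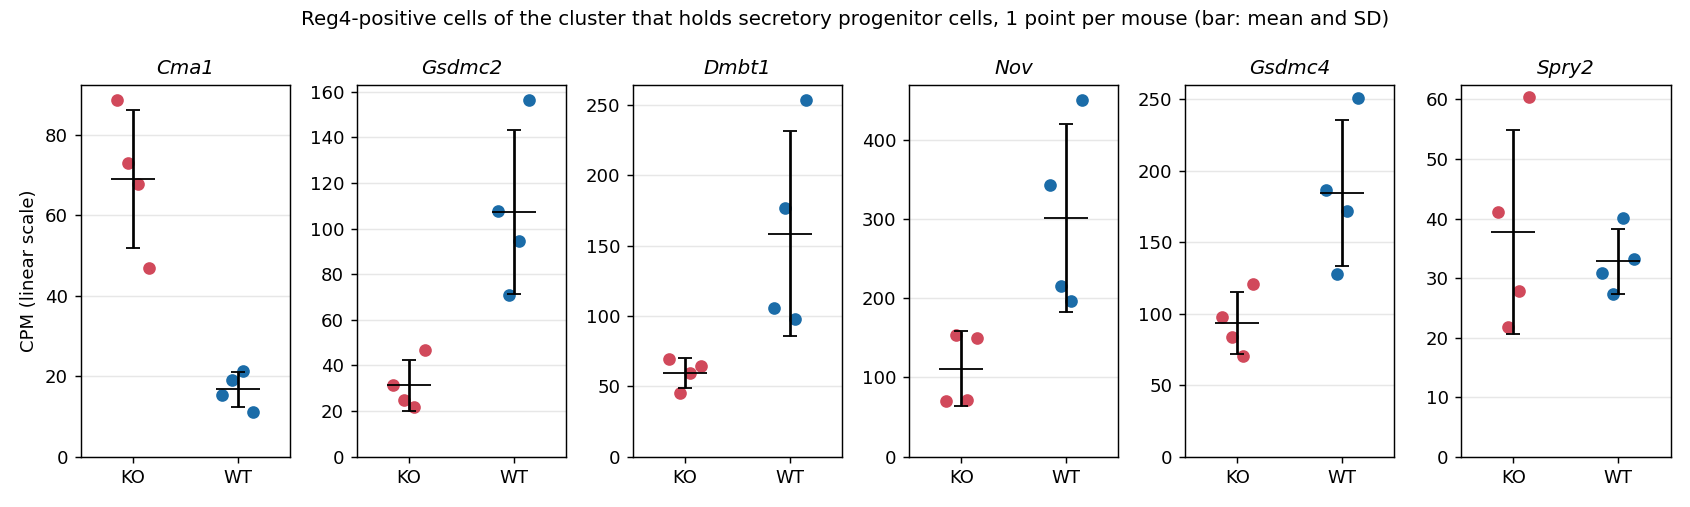
CPM of 6 genes in Reg4-positive cells of the authors' cluster 14, KO left and WT right, with 1 point per mouse and bars at the mean and SD. Cma1 lies at 46.8 to 88.6 CPM in KO and 11.2 to 21.3 CPM in WT mice, Gsdmc2 at 21.8 to 46.8 and 71.1 to 156 CPM, and the levels of Spry2 overlap.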

How the data were processed

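The deposited matrix holds raw UMI counts of 31053 genes in 53080 cells; the authors made them from 10x 3′ libraries with Cell Ranger 3.0.2 and mm10, per the submitters' processing notes. The deposited cell table gives each cell's mouse, cluster, names, UMAP coordinates (a score, not used for results) and size factor, a ratio of cell totals. Its order had to be sorted by mouse and barcode: 53080 size factors then matched the matrix to within 1e-06, against 16 in file order. The authors' cell filter is not given in the sources used here, and no doublet caller was run.

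Counts were summed per mouse and type where at least 20 cells were present, scaled by TMM (edgeR 4.0.16, R 4.3.3), filtered on low counts and compared within mice, so that the mouse number pairs sums of the same animal. KO and WT sums were tested with edgeR's quasi-likelihood test, with an adjusted p under 0.05 as the threshold. DESeq2 1.42.0 was an alternative. A comparison of KO with WT in a cluster mostly of secretory progenitor cells could not be made, since there was none, and the Reg4 choice of cells replaced it. The statistics were tested on simulated data. Intervals and upper limits (3 counts) cover counting error only. Sequences and figures used Python 3.11.15.

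Genes were named by rule: the 4 markers, the 8 highest and 8 lowest called genes per type with at least 50 CPM, the 4 members of each list that differed most, and for KO over WT Spry2 and the 5 smallest p. Other genes, such as Kit, Malat1, Dll4, Slc12a2, Agr2, Lypd8, Cdx2, Hnf4a, Hes1, Klf4, Elf3, Bhlha15, Duox2, Tpsg1, Lgr5 and Neurog3, were chosen after their values were seen. The members and lists were chosen with earlier results of these data known, among them the direction of Cma1 and Nov in the KO epithelium.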

Additional observations from a re-analysis of the deposited data

Results flagged for a closer look

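In 6 of 57 groups of 4 WT mice examined, 1 mouse stood so far from the other 3 that its gap to the nearest, divided by the whole range, was over Dixon's 95% critical value. Chance gives this in about 1 in 20 groups. Mouse 5 had the high value in 4 of the 6. Its secretory progenitor cells had a median of 14020.5 UMIs, against 4962.5 to 6380 in the other mice. They had 1308 CPM of Ccl6, against 719 to 754 CPM, 194 CPM of Mki67, and 18.8 CPM of Slfn4. Reg4 stood apart in mouse 1, at 8088 CPM, against 2300 to 3112 CPM in the other mice. Car1 stood apart in mouse 8, at 123 CPM, against 11.3 to 24.2 CPM.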

How the results depend on the processing

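Over 255 results for single genes and 2844 alternatives, 2731 kept their call or lack of one, 72 lost the call and 41 gained it. Where either setting had a call, 0 turned round. A change of sign in results called in neither setting was not counted. By the rule, a called gene stays called with a mouse left out or at a pseudocount of 1 CPM. Those alternatives could therefore only gain calls. Many of these genes were named because they were the most extreme called, so the tally does not measure how stable other genes are. Thinning to 1000 UMIs gave 311 higher and 236 lower genes against goblet cells (753 and 487 in the report), 265 and 20 against DCS cells (161 and 12) and 159 and 159 against stem-progenitor cells (248 and 276). Thinning to 2000 UMIs gave 266 lower genes against goblet cells, and no value for DCS cells, of which mouse 8 alone had enough. Against DCS cells, no filter on low counts gave 251 higher and 5 lower, a pseudocount of 1 CPM 292 and 19, and cells under 25% mitochondrial UMIs 6 lower. The cause was not tested.

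The mouse is the replicate block of the comparisons between types. With no replicate block, 534 higher and 355 lower genes were found against goblet, 72 and 1 against DCS, and 181 and 211 against stem-progenitor cells. edgeR's quasi-likelihood test with mouse as block gave 1573 and 1056, 609 and 169, and 663 and 748. These counts needed an adjusted p under 0.05 and an estimated difference of at least 2-fold, but not 2-fold in every mouse. No paired analysis was possible for KO over WT because the mouse numbers of the groups are not shared.

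With 1 mouse left out, the counts were 999 to 1100 higher and 585 to 659 lower against goblet, 213 to 669 and 26 to 62 against DCS, and 256 to 363 and 292 to 410 against stem-progenitor cells. A rule over fewer mice is easier to meet. The place towards goblet cells (0.41) was 0.273 to 0.341, and that towards DCS cells (0.81) was 0.463 to 0.825. The goblet place was 0.548 with genes at 8-fold, 0.107 at a pseudocount of 1 CPM and 0.355 without the goblet, deep crypt and mucus lists, and the DCS place was 0.676 at a pseudocount of 1 CPM.

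KO over WT called 2 genes, 4 with DESeq2, 88 with no filter beyond 1 UMI, 1 in cells under 25% mitochondrial UMIs and 1 to 3 with 1 mouse left out. Cma1 passed in all 14 alternatives (adjusted p 1.80e-10 to 0.0433) and Gsdmc2 in 8. The share of named cells (6.24%) was 10.6% under 25% mitochondrial UMIs. Thinned to 1000 UMIs and unthinned, Best2 was found in 15.8 and 52.0% of cells, Ccl6 in 50.5 and 76.5%, and Hepacam2 in 31.3 and 84.7%. Reg4 was found in 64.5% at 1000 UMIs, and the cycling share was 37.7% unthinned.

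The main limits are the 46 secretory progenitor cells of mouse 1, the 31 goblet cells of mouse 8, and the small DCS sums of 3 mice, where a gene at 50 CPM rests on few UMIs.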
